A study of Rattus norvegicus with 12 samples.

Results

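Left ventricles of female Wistar rats that had carried a human VEGF-B gene for 2 months were compared with those of female Wistar rats that had carried human serum albumin for the same time. The vector was an adeno-associated virus of serotype 9 injected once into a tail vein, and each of the 3 AAV-VEGF-B hearts (replicates 1, 3 and 5) and each of the 3 AAV-HSA hearts (replicates 2, 4 and 6) was hybridised to 1 Illumina RatRef-12 BeadChip array in 1 colour. Albumin served as the control protein, so both groups carried a vector and no heart without one was compared. The hearts were chosen by the duration in the sample labels and are 6 of the 12 arrays of the series. The other 6 arrays came from males after 4 months, in which the injection had been repeated. The age of the rats, the promoter in the vector and the human VEGF-B isoform that these rats received were not named in the sources used here.

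VEGF-B is a growth factor of the VEGF family that cardiomyocytes make in large amounts. It binds the receptor VEGFR-1 and the co-receptor neuropilin-1 on endothelial cells, the cells that line blood vessels, and it is known for its effects on coronary vessels, on heart size and on lipid handling. The adult heart takes most of its energy from fatty acids, which are taken up from the blood, bound to coenzyme A, carried into mitochondria by carnitine and oxidised there. The comparison asks which transcripts of the heart differ after a short period of VEGF-B expression.

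The signal of each of 22517 probes was background-corrected, quantile normalized and taken to log2 after an offset of 16 had been added, which shrinks the changes of dim genes. A detection p-value under 0.05 marks a signal above the negative control beads of an array, and 8827 to 9800 probes met it per array. The test took in probes that met it on 3 or more of the 6 arrays, 9451 probes in all, 7053 of them with a gene symbol, for 6944 genes. Where a gene had several probes, the brightest stands for it. AAV-VEGF-B and AAV-HSA hearts were compared with limma, a linear model that borrows the spread of all probes, and a gene is said to be called, or to have risen or fallen, where its p-value after Benjamini-Hochberg adjustment over all tested probes was under 0.05. A log2 change is the mean of AAV-VEGF-B hearts minus that of AAV-HSA hearts, so that 1 is a doubling. Each p-value sets a difference of means against the spread of hearts within groups, which borrows from all probes. It rests on 3 hearts and 3 hearts unless another fit is named. A permutation of 3 against 3 single values cannot give an exact two-sided p under 0.1.

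Log2 signals of pairs of arrays correlated at 0.987 to 0.990 within a vector and at 0.980 to 0.988 between vectors. The first principal component held 38.4% of the variance and placed the 3 AAV-VEGF-B hearts at -17.55, -8.47 and -12.47 and the 3 AAV-HSA hearts at 9.2, 9.9 and 19.38. AAV-VEGF-B heart 5 and AAV-HSA heart 2 stood apart from the other 4 hearts in their clock genes, whose values are given below beside the counts without them.

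The rat Vegfb probe does not check the labels, because the vector carried a human sequence, and no probe was named for albumin. Its log2 signal was 9.18, 9.40 and 9.67 in AAV-VEGF-B hearts 1, 3 and 5, against 10.05, 9.48 and 9.69 in AAV-HSA hearts 2, 4 and 6. The groups overlapped, and the log2 change of -0.32 (SE 0.18) missed the threshold (limma, adjusted p = 0.387). Of the rat VEGF family, 6 of 10 listed genes were tested and 0 were called in either direction (limma), with 0 with an unadjusted p below 0.05. Vegfa, the main angiogenic ligand, had a log2 change of -0.19 (SE 0.12), and Vegfc, a ligand of lymphatic vessels, of 0.19 (SE 0.11). Flt1, which encodes VEGFR-1, was dim and changed by 0.01 (SE 0.14), and Nrp1, which encodes neuropilin-1, by 0.14 (SE 0.12). Vegfd was at -0.01 (SE 0.20). The probes of Pgf and Nrp2 were too dim to be tested, and Kdr and Flt4 had no named probe.

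After 2 months, 125 probes were higher (1.32% of those tested) and 13 were lower (0.138%), 1.46% in all, in AAV-VEGF-B hearts than in AAV-HSA hearts, which amounts to 105 genes that rose (1.51% of tested genes) and 10 that fell (0.144%), or 1.66% together. With an unadjusted p below 0.05 there were 907 higher probes (9.6%) and 760 lower ones (8.04%). Of all tested genes, 10.7% were higher and 7.47% lower at that level. The counts of list members below stand beside these shares and those of the called genes. In each of the 138 called probes the 3 AAV-VEGF-B hearts lay on 1 side of the 3 AAV-HSA hearts. Such a separation was met by 12.5% of all tested genes in the higher direction and by 11.3% in the lower. The median size of the log2 change of the called probes was 0.76, with 26 rises and 1 fall beyond 2-fold. These counts depended on each of the 6 arrays. Higher and lower calls numbered 3 and 0 without AAV-VEGF-B heart 1, 35 and 8 without AAV-VEGF-B heart 3, and 5 and 0 without AAV-VEGF-B heart 5. They numbered 21 and 1 without AAV-HSA heart 2, 14 and 0 without AAV-HSA heart 4, and 5 and 0 without AAV-HSA heart 6. Of the 60 called genes that the text names by rule, 34 were called in 0 of these 6 fits, and Sgk1 and Ttc9 in each of them. When each array was scaled to a common median instead of quantile normalized, the median log2 change of all tested genes was 0.12 in place of -0.02, and 461 probes were higher and 9 lower, 98.1% of calls in the higher direction against 90.6%. Without background correction the calls were 223 higher and 73 lower, 75.3% of them higher.

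**Figure D1:**
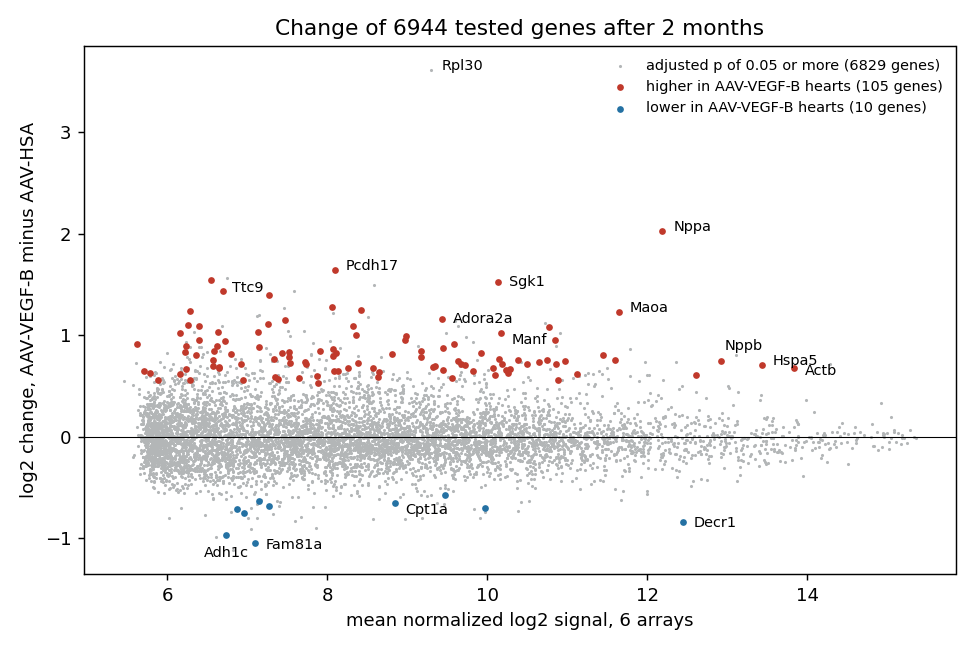
Each point is 1 of 6944 genes, with the mean normalized log2 signal over the 6 arrays on the x axis and the log2 change of AAV-VEGF-B minus AAV-HSA hearts on the y axis. The 105 genes that rose (red) lie across the whole range of signals and the 10 that fell (blue) between 6.7 and 12.4, while Rpl30, the highest point, was not called.

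Nppa, which encodes the natriuretic peptide ANP that atria secrete and stressed ventricles re-express, had the largest log2 change of the called genes. Its log2 signal was 13.92, 12.66 and 13.03 in AAV-VEGF-B hearts 1, 3 and 5, against 10.48, 11.37 and 11.68 in AAV-HSA hearts 2, 4 and 6. The lowest AAV-VEGF-B heart lay above the highest AAV-HSA heart, though hearts of a group differed by more than 1 on this scale. The log2 change was 2.02 (SE 0.36), a 4.07-fold rise (limma, adjusted p = 0.0364). The call was lost without any 1 of the 6 arrays (highest adjusted p = 0.145), without the filter on dim probes and in a fit on all 12 arrays.

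Nppb, which encodes the ventricular natriuretic peptide BNP, rose too. Its log2 signal was 13.30, 13.30 and 13.28 in AAV-VEGF-B hearts, against 12.42, 12.40 and 12.82 in AAV-HSA hearts. The AAV-VEGF-B hearts were nearly level and AAV-HSA heart 6 came closest to them, with a log2 change of 0.75 (SE 0.14, limma adjusted p = 0.0386). This call, too, was lost without any 1 of the 6 arrays, without the filter on dim probes and with all 12 arrays (highest adjusted p = 0.173). Other markers of pathological hypertrophy did not pass the test. Of 12 tested members of that list 2 rose and 0 fell, against 1.51% and 0.144% of all tested genes, with a median log2 change of 0.47. Of the 12, 6 were higher and 0 lower with an unadjusted p below 0.05, against 10.7% and 7.47% of all tested genes. Acta1, the skeletal muscle actin of fetal and stressed hearts, stood at a log2 change of 0.81 (SE 0.29, adjusted p = 0.199), and the slow and fast myosin heavy chains Myh7 and Myh6 were at 0.04 (SE 0.11) and 0.00 (SE 0.12).

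Nppa is also a marker of atrial tissue, and it was the 1 called gene among 8 tested atrial genes, whose median log2 change was 0.41. Of these 8, 4 were higher and 0 lower with an unadjusted p below 0.05, against 10.7% and 7.47% of all tested genes. Myl7, the atrial regulatory myosin light chain, had log2 signals of 9.10, 9.35 and 7.59 in AAV-VEGF-B hearts, against 6.76, 7.75 and 7.86 in AAV-HSA hearts, so that AAV-VEGF-B heart 5 lay among the AAV-HSA hearts (log2 change 1.22, SE 0.45, adjusted p = 0.206). The atrial hormone gene Bmp10 changed by -0.02 (SE 0.16). The mean level of the 2 tested defining atrial markers, Nppa and Myl7, ran from 10.3 to 11.5 in AAV-VEGF-B hearts and from 8.62 to 9.77 in AAV-HSA hearts, while Myl4 and Sln had no named probe. The part of atrial tissue in the change of Nppa was not tested.

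The 2 smallest p-values belonged to Sgk1 and Ttc9. Sgk1, a kinase of the cell survival and sodium transport pathways that glucocorticoids induce, had log2 signals of 10.98, 10.90 and 10.81 in AAV-VEGF-B hearts, against 9.50, 9.36 and 9.27 in AAV-HSA hearts. The 2 groups were each tight and lay far apart, with a log2 change of 1.52 (SE 0.11, limma adjusted p = 0.00326). Ttc9, which encodes a tetratricopeptide repeat protein, had 7.58, 7.31 and 7.36 in AAV-VEGF-B hearts, against 5.99, 5.91 and 6.03 in AAV-HSA hearts. Its AAV-HSA signals were close to the dim end of the arrays, and its log2 change was 1.44 (SE 0.12, adjusted p = 0.00326). Of the 60 called genes named by rule, these 2 alone were called under each alternative that left out at most 1 array, with adjusted p-values up to 0.0311.

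Other stress-responsive genes rose as well. Lcn2, a secreted carrier of bacterial iron chelators, had log2 signals of 9.23, 8.98 and 8.92 in AAV-VEGF-B hearts, against 7.44, 8.0 and 7.96 in AAV-HSA hearts. The gap between the groups was larger than the range of either, with a log2 change of 1.25 (SE 0.17, adjusted p = 0.0279). Ddit4, which restrains the growth kinase complex mTORC1, rose by 0.99 (SE 0.16), and Sik1, a salt-inducible kinase, by 1.28 (SE 0.23). Of the 19 tested glucocorticoid-responsive and stress genes 3 rose (Sgk1, Lcn2 and Ddit4) and 0 fell, against 1.51% and 0.144% of all tested genes. Sik1 was not in this list, whose median log2 change was 0.20. The classical glucocorticoid targets Fkbp5, Tsc22d3 and Dusp1 were at 0.38, 0.11 and 0.20 and did not pass the test. With an unadjusted p below 0.05, 6 members were higher and 2 lower, against 10.7% and 7.47% of all tested genes. Pdk4, given below, had the lowest change of the list, -0.80 (SE 0.19, limma adjusted p = 0.0841). Without background correction, with the deposited log2 table, an offset of 50 or an intensity trend, 3 or 4 members were called higher and 1 lower. Among 13 tested immediate early genes Klf6, a zinc-finger factor of early responses, rose by 0.68 (SE 0.12), 0 fell, and Egr1, the serum-induced zinc-finger factor, stood at a log2 change of 0.82 (SE 0.21, adjusted p = 0.0946). Of these 13, 6 were higher and 1 lower with an unadjusted p below 0.05.

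Of 34 tested genes of the endothelial surface and cell junctions 7 rose and 0 fell, against 1.51% and 0.144% of all tested genes. They were Mcam and Cd93, Emcn, Clec1a, Adgrl4, Nos3 and Icam2. The list's median log2 change was 0.51, beside -0.02 over all genes, and 31 of the 34 changes were above 0. Of the 34, 24 were higher and 1 lower with an unadjusted p below 0.05, against 10.7% and 7.47% of all tested genes. This list, like the others, was written with earlier results of these data known, so its share of calls is not independent evidence. Cd93, a C-type lectin of endothelial cells, had log2 signals of 11.37, 11.17 and 11.39 in AAV-VEGF-B hearts, against 10.47, 10.20 and 10.03 in AAV-HSA hearts. The groups were separated by more than the range of either, with a log2 change of 1.08 (SE 0.14, adjusted p = 0.0216). Mcam, the adhesion molecule CD146 of endothelium and pericytes, was above background in 3 of 3 AAV-VEGF-B hearts and in 1 of 3 AAV-HSA hearts and rose by 1.24 (SE 0.18). Emcn, the sialomucin endomucin of capillaries and veins, was 11.86, 11.86 and 11.85 in AAV-VEGF-B hearts, against 11.25, 10.99 and 10.90 in AAV-HSA hearts. The AAV-VEGF-B hearts were level and the log2 change was 0.81 (SE 0.12, adjusted p = 0.0348).

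Nos3, the endothelial nitric oxide synthase, had log2 signals of 10.78, 10.79 and 11.001 in AAV-VEGF-B hearts, against 10.13, 10.21 and 10.10 in AAV-HSA hearts, and the groups did not overlap. Its log2 change was 0.71 (SE 0.11, adjusted p = 0.0348). Clec1a, a C-type lectin receptor, rose by 0.80 (SE 0.14), Adgrl4, an adhesion receptor of the sprouting endothelium, by 0.72 (SE 0.14), and Icam2, an adhesion molecule of resting endothelium, by 0.66 (SE 0.12). Other endothelial genes did not pass the test. Plvap, the diaphragm protein of fenestrated capillaries, had a log2 change of 1.19 with a wide error (SE 0.30, adjusted p = 0.0912), Vwf was at 0.26 (SE 0.14), the tight junction gene Cldn5 at -0.01 (SE 0.17), and Clec14a at -0.44 (SE 0.15, adjusted p = 0.178). Without 1 array at a time, 0 to 2 members of the list were called, whereas 13 to 16 were called higher without background correction, with the deposited log2 table, median scaling, an offset of 50, an intensity trend in the spread or all 12 arrays. Its median minus that of all genes lay between 0.37 and 0.62 under the alternatives.

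Of 17 tested transcription factors of endothelial cells 3 rose and 0 fell, against 1.51% and 0.144% of all tested genes. Their median log2 change was 0.43, with 14 changes above 0. Of the 17, 10 were higher and 0 lower with an unadjusted p below 0.05, against 10.7% and 7.47% of all tested genes. Klf2, which laminar blood flow induces in endothelium, had log2 signals of 9.91, 10.21 and 10.03 in AAV-VEGF-B hearts, against 8.98, 9.40 and 9.02 in AAV-HSA hearts. AAV-HSA heart 4 came closest to the other group, and the log2 change was 0.92 (SE 0.15, adjusted p = 0.0348). Hhex, a homeobox factor of blood and vessel precursors, rose by 0.82 (SE 0.11), and Fli1, an ETS factor of endothelial and blood cells, by 0.71 (SE 0.12). Erg, another ETS factor, was at -0.13 (SE 0.18) and Sox18 at 0.58 (SE 0.34), and neither passed the test. Without any 1 of the 6 arrays, 0 or 1 member was called, and with median scaling 7 were.

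Among the angiopoietin, Tie and Notch genes 1 of 16 rose and 0 fell, against 1.51% and 0.144% of all tested genes. Their median log2 change was 0.35. Of these 16, 7 were higher and 1 lower with an unadjusted p below 0.05, against 10.7% and 7.47% of all tested genes. Tie1, an orphan receptor tyrosine kinase of endothelium, had log2 signals of 10.62, 10.53 and 10.72 in AAV-VEGF-B hearts, against 9.85, 9.89 and 10.13 in AAV-HSA hearts. The log2 change was 0.67 (SE 0.12, adjusted p = 0.0364), a second Tie1 probe rose by 0.68, and the call of the brighter probe was lost without any 1 of the 6 arrays. The 2 main ligands of the related receptor Tek pointed opposite ways without passing the test. Angpt2, the vessel-remodelling ligand that endothelium makes, was 6.89, 6.94 and 7.04 in AAV-VEGF-B hearts, against 6.50, 6.13 and 6.32 in AAV-HSA hearts (log2 change 0.64, SE 0.13, adjusted p = 0.0505). Angpt1, the vessel-stabilising ligand of mural cells, was 7.86, 7.77 and 7.73 in AAV-VEGF-B hearts, against 8.31, 8.14 and 8.65 in AAV-HSA hearts (log2 change -0.58, SE 0.14, adjusted p = 0.0873). For each of the 2 genes the groups did not overlap. Angpt1 and Angpt2 were chosen after their values were seen. Of the Notch genes, the ligand Dll4 stood at a log2 change of 0.59 (SE 0.19, adjusted p = 0.157), the ligand Jag1 of 0.53 (SE 0.15, adjusted p = 0.12), the receptor Notch4 of 0.48 (SE 0.17, adjusted p = 0.182) and the receptor Notch1 of 0.35 (SE 0.17, adjusted p = 0.315).

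In RNA from whole tissue, more endothelial cells and more RNA of these genes per cell cannot be told apart. The 4 tested defining endothelial markers (Emcn, Tie1, Esam and Icam2) had a mean log2 level of 10.8 to 10.9 in AAV-VEGF-B hearts and 10.1 to 10.2 in AAV-HSA hearts, and 3 of the 4 rose. The 6 tested defining cardiomyocyte markers had a mean log2 level of 12.01 to 12.05 in AAV-VEGF-B hearts and 12.08 to 12.12 in AAV-HSA hearts, with no overlap. Of these 6, 0 were called (limma), and their median log2 change was -0.06, beside -0.02 over all genes. The part of the share of endothelial cells in the changes of endothelial genes was not tested. The probe of Cdh5 was too dim, and Pecam1 had no named probe.

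**Figure D2:**
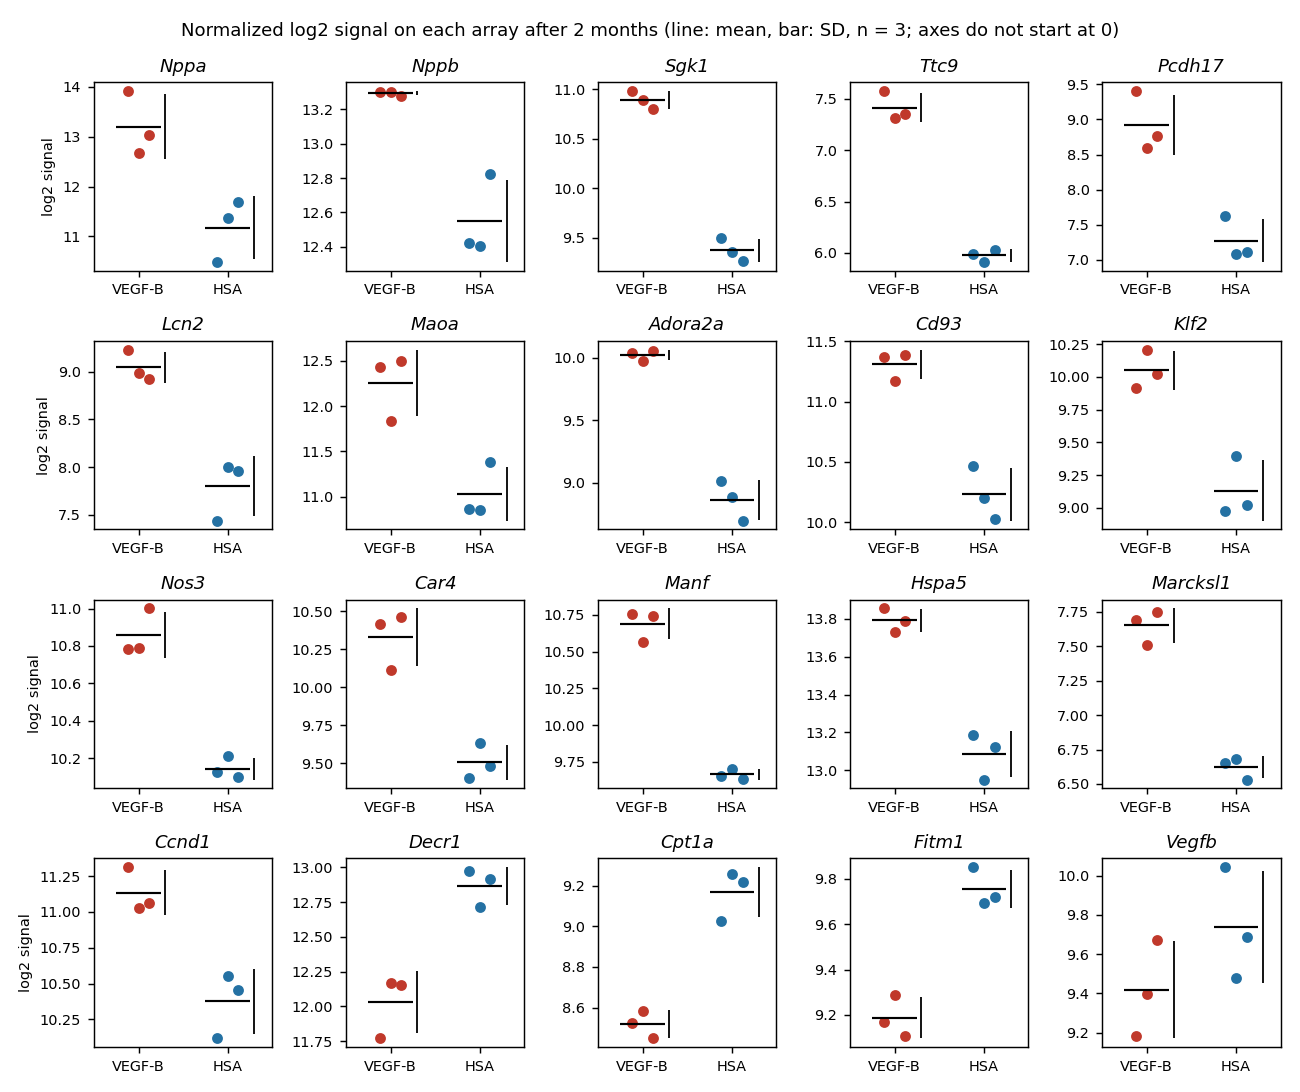
Each panel plots the normalized log2 signal of 1 gene on the y axis for the 3 AAV-VEGF-B hearts (red, left) and the 3 AAV-HSA hearts (blue, right), with the mean as a line and the SD as a bar, on axes that do not start at 0. In each panel but that of rat Vegfb the 2 groups do not overlap, as for Sgk1 at 10.81 to 10.98 in AAV-VEGF-B hearts and 9.27 to 9.50 in AAV-HSA hearts.

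Several of the largest rises outside the endothelial lists were genes of signalling and adhesion at the cell surface. Pcdh17, a protocadherin of cell adhesion, had log2 signals of 9.41, 8.60 and 8.76 in AAV-VEGF-B hearts, against 7.63, 7.08 and 7.12 in AAV-HSA hearts. Heart 1 of AAV-VEGF-B and heart 2 of AAV-HSA were the highest of their groups, and the log2 change was 1.65 (SE 0.23, adjusted p = 0.0279). Adora2a, the adenosine receptor that widens coronary vessels, was 10.04, 9.97 and 10.05 in AAV-VEGF-B hearts, against 9.01, 8.89 and 8.69 in AAV-HSA hearts. The AAV-VEGF-B hearts were within 0.1 of each other, and the log2 change was 1.16 (SE 0.12, adjusted p = 0.015). Pvr, a nectin-like adhesion receptor, rose by 1.12 (SE 0.19). Maoa, the mitochondrial enzyme monoamine oxidase A that degrades noradrenaline and serotonin, was 12.44, 11.84 and 12.50 in AAV-VEGF-B hearts, against 10.87, 10.86 and 11.38 in AAV-HSA hearts. The groups did not overlap, and the log2 change was 1.23 (SE 0.21, adjusted p = 0.0364). The remaining genes among the 15 largest rises were Nes and Ahsp, given below, Tp53i11, a p53-inducible gene (1.15, SE 0.15), Lxn and Nrep.

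Nrep, a regeneration-associated gene, rose by 1.10 (SE 0.17). Lxn, the carboxypeptidase inhibitor latexin, was above background in 3 of 3 AAV-VEGF-B hearts and 0 of 3 AAV-HSA hearts. Its level in AAV-VEGF-B hearts was higher by a factor of at least 1.99 (adjusted p = 0.0155). This bound sets the mean of AAV-VEGF-B hearts over the faintest detectable signal of the AAV-HSA arrays. Of the other called genes, 5 were likewise not above background on any AAV-HSA array. They were at least 1.82-fold (Prcp), 1.28-fold (Unc119b), 1.22-fold (Ripply3), 1.21-fold (Ifit1) and 1.17-fold (Rin3) higher in AAV-VEGF-B hearts. Lxn and these 5 genes met the filter on dim probes through the AAV-VEGF-B hearts alone, the group in which they were higher. Car4, a carbonic anhydrase on the outer membrane of capillary endothelium and muscle, was 10.42, 10.11 and 10.46 in AAV-VEGF-B hearts, against 9.41, 9.63 and 9.48 in AAV-HSA hearts. The groups did not overlap and Car4 rose by 0.82 (SE 0.13, adjusted p = 0.0348). It was the 1 called gene among 7 tested carbonic anhydrases and aquaporins, whose median log2 change was -0.18. Of these 7 genes 1 was higher and 2 lower with an unadjusted p below 0.05, against 10.7% and 7.47% of all tested genes. The glycerol channel Aqp7 stood at a log2 change of -0.80 (SE 0.22, adjusted p = 0.113).

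Vessel-associated cells and matrix gave fewer calls. Of 12 tested smooth muscle and pericyte genes 0 were called (limma), and the median log2 change was 0.51. With an unadjusted p below 0.05, 6 were higher and 0 lower, against 10.7% and 7.47% of all tested genes. The actin-binding protein Tagln was at 0.64 (SE 0.45), and the pericyte genes Rgs5 and Cspg4 at 0.52 (SE 0.17) and 0.50 (SE 0.14). In the list of basement membrane and matrix genes 2 of 24 rose and 0 fell, against 1.51% and 0.144% of all tested genes, with a median of 0.11. Of the 24, 8 were higher and 2 lower with an unadjusted p below 0.05. Col4a1, a chain of the type IV collagen of vascular basement membranes, was 11.42, 11.23 and 11.32 in AAV-VEGF-B hearts, against 10.55, 10.31 and 10.27 in AAV-HSA hearts. Every AAV-VEGF-B heart was well above the highest AAV-HSA heart, and the log2 change was 0.95 (SE 0.12, adjusted p = 0.0211). Loxl1, which crosslinks elastin, rose by 0.65 (SE 0.12), whereas a dimmer Loxl1 probe, at 0.63, was not called. Of 21 fibrillar collagens and fibroblast genes 0 were called (limma), with 7 higher and 0 lower with an unadjusted p below 0.05 and a median of 0.20. The fibrillar collagens Col1a1 and Col3a1 had log2 changes of 0.10 (SE 0.18) and 1.14 (SE 0.40, adjusted p = 0.192). Tgfb1, the growth factor that drives matrix synthesis, rose by 0.87 (SE 0.16, adjusted p = 0.0431). It was the 1 call among 21 genes of TGF-beta and BMP signalling, whose median was 0.05. Of these 21, 8 were higher and 1 lower with an unadjusted p below 0.05, against 10.7% and 7.47% of all tested genes.

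Of 37 tested genes of the actin cytoskeleton outside the sarcomere 10 rose and 0 fell, against 1.51% and 0.144% of all tested genes. Their median log2 change was 0.29, and 32 changes were above 0. Of the 37, 18 were higher and 1 lower with an unadjusted p below 0.05, against 10.7% and 7.47% of all tested genes. Marcksl1, which links actin to the cell membrane, was 7.69, 7.51 and 7.75 in AAV-VEGF-B hearts, against 6.65, 6.68 and 6.53 in AAV-HSA hearts. The groups were far apart, with a log2 change of 1.03 (SE 0.11, adjusted p = 0.0155). Nes, the intermediate filament protein nestin of growing vessels and precursor cells, was 7.78, 8.20 and 7.94 in AAV-VEGF-B hearts, against 5.87, 7.02 and 6.82 in AAV-HSA hearts. AAV-HSA heart 2 was lowest by more than 0.9, and the log2 change was 1.40 (SE 0.27, adjusted p = 0.046). The non-muscle tropomyosins Tpm3 and Tpm4 rose by 0.82 (SE 0.12) and 0.74 (SE 0.13), and filamin A (Flna), which crosslinks actin, by 0.72 (SE 0.11). Actb, the cytoplasmic beta-actin often used as an unchanging control, rose by 0.68 (SE 0.11), while its 2 dimmer probes were at 0.52 and 0.53 and were not called. Tagln2, S100a11 and the Arp2/3 subunits Arpc1b and Arpc5 rose by 0.56 to 0.75. Vcl, the adhesion protein vinculin, stood at a log2 change of -0.50 (SE 0.17, adjusted p = 0.173). Without 1 array at a time 0 or 1 member of the list was called, and with median scaling 17 were.

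Of 29 tested cell cycle genes 4 rose and 0 fell, against 1.51% and 0.144% of all tested genes, and the median log2 change was 0.42. Of the 29, 18 were higher and 0 lower with an unadjusted p below 0.05, against 10.7% and 7.47% of all tested genes. Ccnd1, the cyclin D1 that starts the cell cycle, was 11.31, 11.02 and 11.06 in AAV-VEGF-B hearts, against 10.12, 10.55 and 10.45 in AAV-HSA hearts. The groups did not overlap, with a log2 change of 0.76 (SE 0.15, adjusted p = 0.0464). Kifc1, a mitotic spindle motor, rose by 0.89 (SE 0.16), Cdc20, an activator of mitotic protein degradation, by 0.56 (SE 0.11), and the alpha-tubulin Tuba1a by 0.61 (SE 0.11). The mitotic kinase Cdk1 stood at a log2 change of 1.03 (SE 0.21, adjusted p = 0.0505). The genes of DNA synthesis Pcna and Mcm5 were at 0.13 (SE 0.14) and -0.15 (SE 0.11). Probes for Mki67 and Top2a were not named, and those of Ccna2, Ccnb1 and 14 other listed genes were too dim to be tested. Without 1 array at a time 0 or 1 member was called and without the filter on dim probes 2, whereas 11 were called higher with median scaling and 9 with all 12 arrays.

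The endoplasmic reticulum (ER) is the compartment in which secreted and membrane proteins are folded. Of 44 tested ER folding and secretion genes 6 rose and 0 fell, against 1.51% and 0.144% of all tested genes, 41 changes were above 0 and the median log2 change was 0.32. Of the 44, 24 were higher and 0 lower with an unadjusted p below 0.05, against 10.7% and 7.47% of all tested genes. Manf, a secreted protein of the ER that is made under folding stress, was 10.76, 10.57 and 10.74 in AAV-VEGF-B hearts, against 9.66, 9.70 and 9.64 in AAV-HSA hearts. The AAV-HSA hearts were within 0.1 of each other and far below, with a log2 change of 1.02 (SE 0.11, adjusted p = 0.0153). Hspa5, the main ER chaperone BiP, was 13.86, 13.73 and 13.79 in AAV-VEGF-B hearts, against 13.18, 12.95 and 13.12 in AAV-HSA hearts. This bright gene rose by 0.71 (SE 0.11, adjusted p = 0.0348). Sdf2l1 and Dnajb9, partners of BiP, rose by 1.03 (SE 0.18) and 0.65 (SE 0.12), Dnajc3, a BiP co-chaperone, by 0.77 (SE 0.15), and Creld2, a stress-induced ER protein, by 0.85 (SE 0.13).

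Other ER genes did not pass the test. The pancreas-type disulfide isomerase Pdia2 had log2 signals of 9.46, 9.89 and 8.67 in AAV-VEGF-B hearts, against 7.23, 7.88 and 8.41 in AAV-HSA hearts. AAV-VEGF-B heart 5 was only slightly above AAV-HSA heart 6, and the log2 change of 1.5 carried a wide error (SE 0.35, adjusted p = 0.0748). Pdia2 was chosen after its values were seen. The stress transcription factor Xbp1 was at 0.48 (SE 0.11, adjusted p = 0.0711), the chaperone Hsp90b1 at 0.52 (SE 0.12, adjusted p = 0.0727), and Ddit3, the factor CHOP of prolonged ER stress, at 0.03 (SE 0.13). Without 1 array at a time 0 to 2 members of the list were called and without the filter on dim probes 4, whereas 15 to 18 were called higher without background correction, with the deposited log2 table, median scaling, an offset of 50, the intensity trend or all 12 arrays. The list median minus that of all genes lay between 0.30 and 0.37 under the alternatives.

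The ER stress response element is a promoter sequence of chaperone genes made of CCAAT, 9 bases of any kind and CCACG. It was looked for on both strands in RefSeq promoters of the rat assembly GRCr8, from 250 bases before to 50 bases after each gene's start. It occurred in 21 of 27457 promoters (0.0765%), in 12 of the 5795 promoters of tested genes (0.207%) and in 7 of the 38 promoters found for the tested ER genes (18.4%). Among the 6 genes that rose, 5 had a promoter entry and 3 of these held the element. The stretches around it are shown for these 3 genes and for Hsp90b1, which held 2 elements, in lower case with the matching bases of each element in capitals (CGTGG, 9 bases, ATTGG on the opposite strand).
Hspa5 (chr3:38452953-38453011, plus strand): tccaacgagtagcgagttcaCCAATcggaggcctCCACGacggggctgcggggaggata
Dnajc3 (chr15:102432514-102432572, plus strand): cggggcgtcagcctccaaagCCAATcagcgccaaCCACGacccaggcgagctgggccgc
Creld2 (chr7:121789219-121789277, plus strand): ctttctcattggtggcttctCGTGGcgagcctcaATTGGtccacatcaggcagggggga
Hsp90b1 (chr7:23012327-23012489, minus strand): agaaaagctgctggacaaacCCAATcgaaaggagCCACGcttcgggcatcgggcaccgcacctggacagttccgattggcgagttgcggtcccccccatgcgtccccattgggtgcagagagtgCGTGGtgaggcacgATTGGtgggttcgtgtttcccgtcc
The other 3 promoters with the element were those of Xbp1, Canx and Calr, whose log2 changes were 0.48, 0.27 and 0.23 and were not called. The match is a description of these windows, and the element's part in the changes was not tested.

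Genes of fatty acid use, Decr1, Cpt1a and Fitm1, were 3 of the 10 genes that fell. Decr1, the mitochondrial dienoyl-CoA reductase for unsaturated fatty acids, had log2 signals of 11.77, 12.17 and 12.15 in AAV-VEGF-B hearts, against 12.97, 12.72 and 12.91 in AAV-HSA hearts. The highest AAV-VEGF-B heart was below the lowest AAV-HSA heart by more than 0.5, and the log2 change was -0.84 (SE 0.14, adjusted p = 0.0364). Of the 29 tested genes of mitochondrial fatty acid oxidation 1 fell and 0 rose, against 0.144% and 1.51% of all tested genes. The median log2 change was -0.29, 28 of the 29 changes were below 0, and 13 were lower and 0 higher with an unadjusted p below 0.05, against 7.47% and 10.7% of all genes. Hadha, the large subunit of the trifunctional protein, was 11.81, 11.63 and 11.76 in AAV-VEGF-B hearts, against 12.38, 12.13 and 12.30 in AAV-HSA hearts. These groups did not overlap, but the change of -0.53 (SE 0.12) missed the threshold (adjusted p = 0.0654). The very-long-chain dehydrogenase Acadvl was at -0.42 (SE 0.10, adjusted p = 0.0873), and the medium-chain dehydrogenase Acadm at -0.25 (SE 0.12). The list median minus that of all genes lay between -0.31 and -0.20 under the alternatives, and 0 members were called without any 1 of the 6 arrays or without the filter on dim probes. The count of members called lower was 8 without background correction and with the deposited log2 table, 7 with an intensity trend in the spread, 5 with all 12 arrays in the fit and 4 with an offset of 50.

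Cpt1a, the liver-type carnitine palmitoyltransferase that loads fatty acids onto carnitine, had log2 signals of 8.53, 8.58 and 8.45 in AAV-VEGF-B hearts, against 9.03, 9.26 and 9.22 in AAV-HSA hearts. The groups did not overlap, and the log2 change was -0.65 (SE 0.11, adjusted p = 0.0364). The muscle-type gene Cpt1b was at -0.43 (SE 0.12, adjusted p = 0.112). Of 13 tested genes of the carnitine shuttle and fatty acid activation 1 fell and 0 rose, against 0.144% and 1.51% of all tested genes. Of these 13, 9 were lower and 1 higher with an unadjusted p below 0.05, against 7.47% and 10.7% of all tested genes. The median was -0.37 and 12 changes were below 0. Acsl5, an acyl-CoA synthetase, was the exception at 0.40 (SE 0.11, adjusted p = 0.122), and Acss2, which activates acetate, was at -0.65 (SE 0.15, adjusted p = 0.0731). Mlycd, which degrades the Cpt1 inhibitor malonyl-CoA, stood at a log2 change of -0.51 (SE 0.13, adjusted p = 0.092). With arrays scaled to a common median, Cpt1a and Fitm1 were no longer called and Acsl5 was called higher, while the list median stayed 0.34 below that of all genes. Without any 1 of the 6 arrays 0 members were called, whereas 7 were called lower without background correction, 6 with the deposited log2 table, 6 with the intensity trend, 8 with all 12 arrays and 2 with an offset of 50.

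Among 29 tested genes of fatty acid uptake, storage and lipolysis, Fitm1, a protein of the muscle ER that partitions fat into droplets, fell and 0 rose. Its log2 signals were 9.17, 9.29 and 9.11 in AAV-VEGF-B hearts, against 9.85, 9.70 and 9.72 in AAV-HSA hearts. All AAV-VEGF-B hearts were lower, with a log2 change of -0.57 (SE 0.11, adjusted p = 0.0469), a call that was lost without any 1 of the 6 arrays. The median of this list was -0.15. Of its 29 tested members 3 were higher and 5 lower with an unadjusted p below 0.05, against 10.7% and 7.47% of all tested genes. The fatty acid transporter Cd36 was at -0.05 (SE 0.11) and lipoprotein lipase (Lpl) at -0.01 (SE 0.11), both bright genes in every heart. The fatty acid transport proteins Slc27a1 and Slc27a4 had log2 changes of -0.28 (SE 0.14) and 0.27 (SE 0.14), the droplet protein Plin5 of -0.37 (SE 0.16), and Slc27a3 was too dim to be tested. Of 19 genes of fatty acid and cholesterol synthesis 0 were called (limma), with 4 higher and 1 lower with an unadjusted p below 0.05 and a median of -0.05, and Fasn had no named probe.

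**Figure D3:**
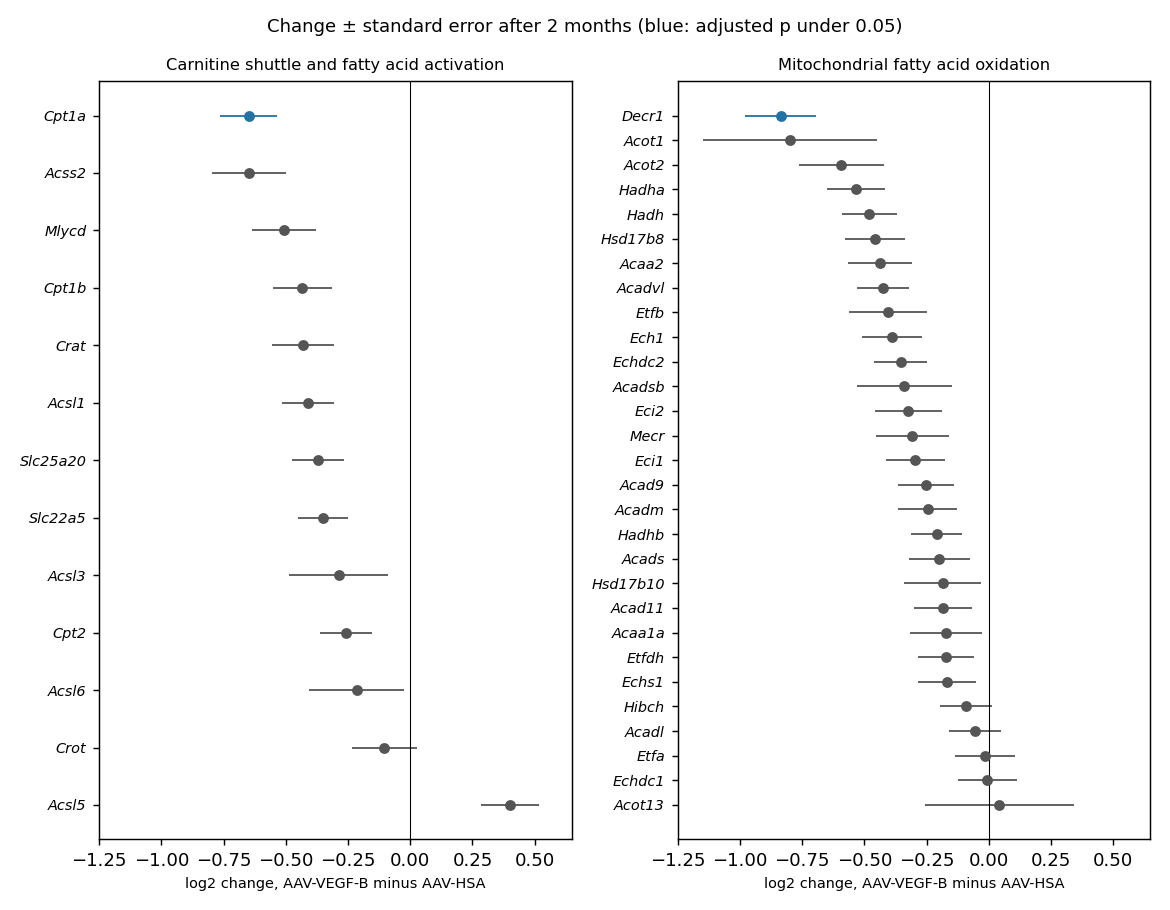
Log2 change of AAV-VEGF-B minus AAV-HSA hearts (points, x axis) with its standard error (bars) for the 13 tested genes of the carnitine shuttle and fatty acid activation (left) and the 29 of mitochondrial fatty acid oxidation (right). Cpt1a and Decr1 (blue) are the called genes, and all but Acsl5 and Acot13 lie below 0.

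The regulators and the neighbouring pathways of energy metabolism had no call. Of 21 tested PPAR, PGC-1 and ERR regulators 0 were called (limma), with a median log2 change of -0.15. With an unadjusted p below 0.05, 1 was higher and 5 lower, against 10.7% and 7.47% of all tested genes. Ppara, the main receptor for fatty acids in the heart, was at -0.13 (SE 0.17), the co-activator gene Ppargc1a at -0.54 (SE 0.18, adjusted p = 0.177), and Pdk4, a PPAR target that holds back glucose oxidation, at -0.80 (SE 0.19, adjusted p = 0.0841). Pdk4 signals were 9.01, 8.42 and 8.91 in AAV-VEGF-B hearts, against 9.91, 9.46 and 9.38 in AAV-HSA hearts, with no overlap. Of 43 genes of glycolysis, glycogen and pyruvate dehydrogenase 0 were called (limma), with a median of -0.14. With an unadjusted p below 0.05, 1 was higher and 5 lower, beside the same shares of all genes. Of 38 genes of the TCA cycle and amino acid breakdown 0 were called (limma), with 0 higher and 7 lower at that level and a median of -0.13. Of 57 subunits of the respiratory chain and ATP synthase 0 were called (limma), with 0 higher and 2 lower at that level and a median of -0.11. Cycs, the electron carrier cytochrome c, was at -0.06 (SE 0.12). With arrays scaled to a common median the medians of these 4 lists were 0.13, 0.14, 0.16 and 0.22 below that of all genes.

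A direct repeat that PPAR factors bind (AGGTCA, 1 base, AGGTCA, either strand) was found in 16 of 27457 promoters (0.0583%) and in 0 of the 25, 12 and 22 promoters of the fatty acid oxidation, carnitine and uptake lists, which says only that these letters are not in these windows. The PPAR repeat was in 2 of the 5795 promoters of tested genes (0.0345%). The high-affinity site of ETS factors (CCGG followed by AAGT) was in 1102 promoters (4.01%). Among the 5795 promoters of tested genes 497 held the ETS site (8.58%). It was in 0 of 11 and 0 of 21 promoters of the endothelial transcription factor and surface lists. These matches are a description of the windows, and the part of ETS factors in the changes was not tested.

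Of the other 7 genes that fell, Fam81a had the largest change. It was 6.57, 6.75 and 6.41 in AAV-VEGF-B hearts, against 7.40, 7.63 and 7.84 in AAV-HSA hearts. The groups were well apart, with a log2 change of -1.05 (SE 0.15, adjusted p = 0.028). Adh1c, an alcohol dehydrogenase, fell by 0.97 (SE 0.19), Slc7a14, of a family of amino acid transporters, by 0.75 (SE 0.15), and the sideroflexin Sfxn5 by 0.71 (SE 0.13). Sdr39u1, a short-chain dehydrogenase, fell by 0.70 (SE 0.13), the mitochondrial ribosomal protein gene Mrpl51 by 0.68 (SE 0.12) and Hook1, a microtubule linker protein, by 0.64 (SE 0.12).

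The genes of heart muscle itself were nearly level. Of 26 tested sarcomere and Z-disc genes 1 rose and 0 fell, with a median log2 change of 0.01. The gene was Pdlim7, a Z-disc adaptor that is also made outside muscle, at 0.64 (SE 0.11). Of 13 cardiomyocyte transcription factors 0 were called (limma), with 1 higher and 0 lower with an unadjusted p below 0.05 and a median of -0.09, Gata4 being at -0.15 (SE 0.12) and Nkx2-5 at -0.19 (SE 0.16). Cebpb and Cited4, factors linked in mice to growth of the heart with exercise, were at 0.47 (SE 0.17, adjusted p = 0.215) and -0.09 (SE 0.23). Among 27 genes of ion channels and calcium cycling Fxyd5, a subunit that modulates the sodium pump, rose by 0.89 (SE 0.13), 0 fell and the median was -0.11, and Atp2a2, the calcium pump SERCA2, was at 0.00 (SE 0.10). Of these 27, 2 were higher and 3 lower with an unadjusted p below 0.05. The cytosolic ribosomal proteins had 0 calls in 55 genes (limma), with 2 higher and 0 lower with an unadjusted p below 0.05 and a median of 0.01. Insulin, IGF and growth factor genes (0 of 21, median -0.09, 4 higher and 1 lower at that level) and antioxidant and glutathione genes (0 of 40, median -0.10, 1 higher and 4 lower) had 0 calls by limma as well. Over all tested genes 10.7% were higher and 7.47% lower at that level.

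Among 24 tested interferon-response genes 2 rose and 0 fell, against 1.51% and 0.144% of all tested genes, and the median log2 change was 0.38. Of the 24, 13 were higher and 0 lower with an unadjusted p below 0.05, against 10.7% and 7.47% of all tested genes. Ifi44 was 7.40, 7.05 and 7.12 in AAV-VEGF-B hearts, against 5.99, 6.54 and 6.21 in AAV-HSA hearts (log2 change 0.94, SE 0.16), without overlap. Ifit1, an antiviral protein, was the second call, with the bound given above, and met the filter through the AAV-VEGF-B hearts alone. The count was 0 without any 1 of the 6 arrays and without the filter on dim probes, and 6 with median scaling. Of 16 MHC and antigen presentation genes 1 rose and 0 fell, against 1.51% and 0.144% of all tested genes, with a median of 0.61. Of these 16, 12 were higher and 0 lower with an unadjusted p below 0.05, against 10.7% and 7.47% of all tested genes. RT1-T24-4, a class I gene, rose by 0.70 (SE 0.13, adjusted p = 0.0444). The call was lost without any 1 of the 6 arrays, without the filter on dim probes and with all 12 arrays (highest adjusted p = 0.177), while 10 of the 16 genes were called higher with median scaling. MHC genes share much of their sequence, so a probe can bind several of them. The class II gene RT1-Ba was 8.44, 8.54 and 7.32 in AAV-VEGF-B hearts, against 6.98, 7.09 and 6.43 in AAV-HSA hearts. AAV-VEGF-B heart 5 was much lower than hearts 1 and 3, and the log2 change of 1.27 (SE 0.31) was not called (adjusted p = 0.089). RT1-Ba was chosen after its values were seen.

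Markers of immune cells were dim. Of 13 tested macrophage genes 1 rose and 0 fell, against 1.51% and 0.144% of all tested genes. The gene was Cyba, an NADPH oxidase subunit, at 0.61 (SE 0.11), and the list's median log2 change was 0.44. Of these 13, 7 were higher and 0 lower with an unadjusted p below 0.05, against 10.7% and 7.47% of all tested genes. The tested defining macrophage markers, Mrc1 and C1qa, had a mean level of 6.79 to 7.49 in AAV-VEGF-B hearts and 6.35 to 6.69 in AAV-HSA hearts, and Cd68 and Csf1r had no named probe. Of 11 tested lymphocyte and leukocyte genes 2 rose and 0 fell, against 1.51% and 0.144% of all tested genes, with a median of 0.32. Of the 11, 3 were higher and 0 lower with an unadjusted p below 0.05, against 10.7% and 7.47% of all tested genes. Gimap5 was 9.45, 9.52 and 9.38 in AAV-VEGF-B hearts, against 8.62, 8.45 and 8.42 in AAV-HSA hearts, and the log2 changes of Gimap5 and Gimap4, both GTPases of lymphocyte survival that endothelial cells also make, were 0.96 (SE 0.11) and 0.85 (SE 0.12). The T cell markers Cd3d, Cd3e, Cd4 and Cd8a and the leukocyte marker Ptprc were below the filter. The tested defining lymphocyte markers were Cd79b and Coro1a, and 0 were called (limma). Their mean level was 6.71 to 6.95 in AAV-VEGF-B hearts and 6.58 to 6.84 in AAV-HSA hearts, with overlap. The part of immune cells in these changes was not tested.

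Ahsp, the chaperone of free alpha-globin in red cell precursors, had log2 signals of 6.61, 7.74 and 7.63 in AAV-VEGF-B hearts, against 5.65, 5.77 and 5.93 in AAV-HSA hearts, where it was above background in 1 of 3. It rose by 1.54 (SE 0.27, adjusted p = 0.0364) as the 1 called gene among 8 tested erythroid genes, whose median was -0.07. The call was lost without the filter on dim probes, with all 12 arrays and without any 1 array other than AAV-VEGF-B heart 1. Of the 8 erythroid genes 1 was higher and 1 lower with an unadjusted p below 0.05, against 10.7% and 7.47% of all genes. The globin genes Hbb and Hba-a1 were at -0.07 (SE 0.11) and 0.02 (SE 0.10), and Alas2, the haem synthesis enzyme of red cells, at -0.01 (SE 0.15). Markers of adipocytes (0 of 6 called, median 0.31, 2 higher and 0 lower with an unadjusted p below 0.05), lymphatic endothelium (0 of 5, median 0.19, 0 and 0), Schwann cells (0 of 5, median 0.18, 1 and 0) and epicardium (0 of 1, Wt1 at 0.63, 1 and 0) had no call by limma.

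**Figure D4:**
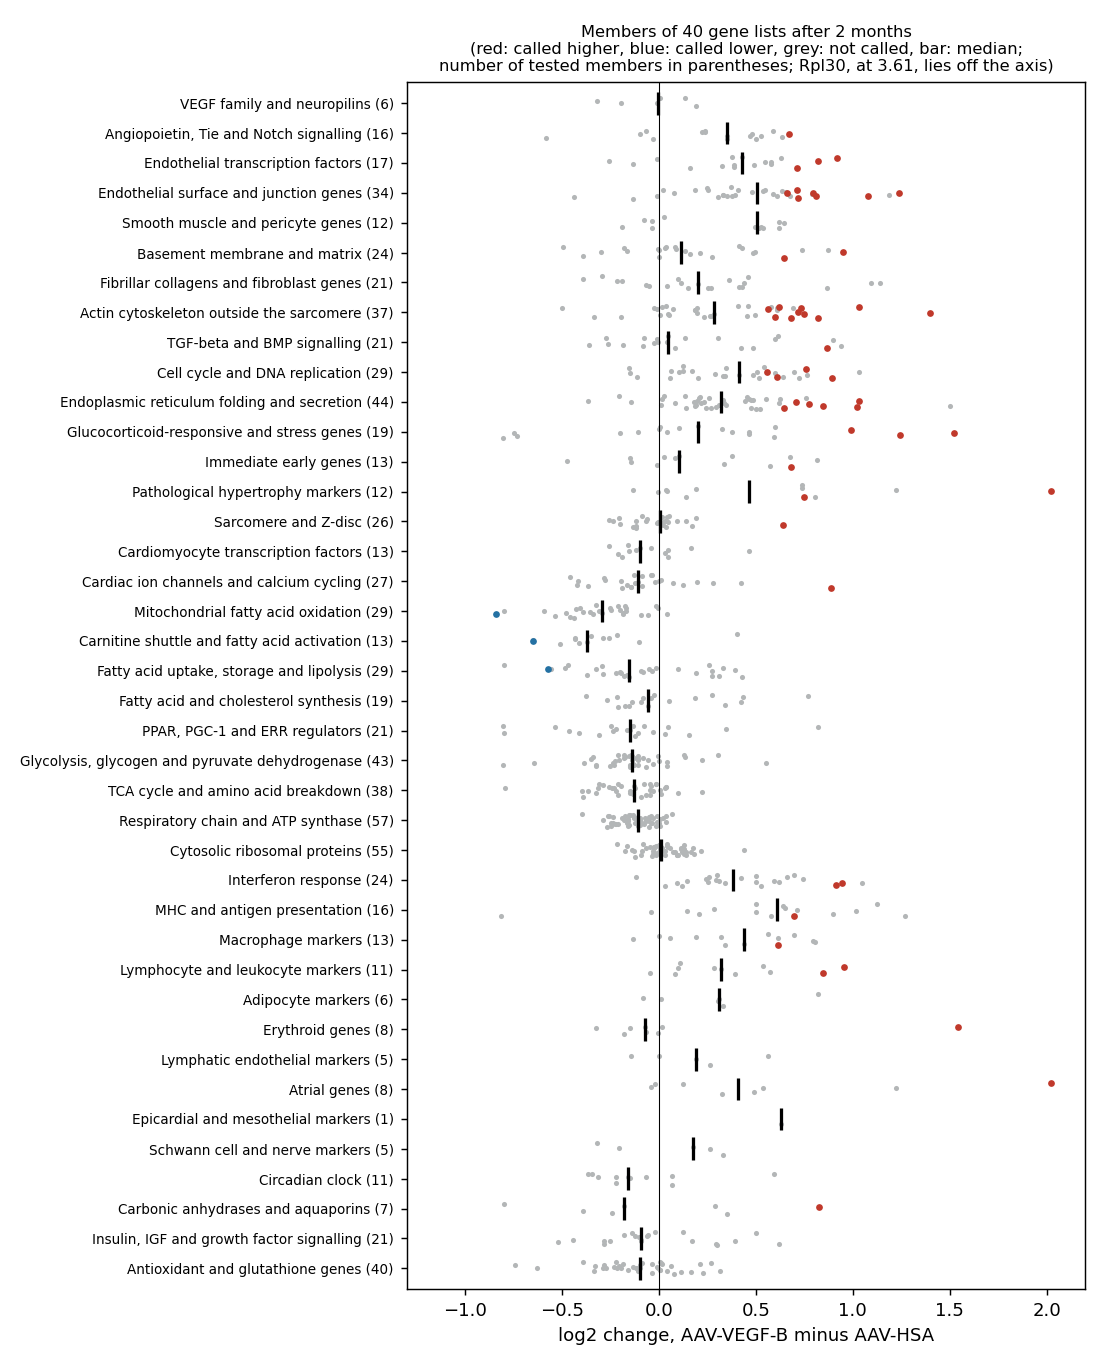
Each row is 1 of 40 gene lists with its number of tested genes in parentheses, and each point is the log2 change of 1 gene, AAV-VEGF-B minus AAV-HSA hearts, in red where it rose, blue where it fell and grey where it was not called. The bars mark list medians, from 0.61 for MHC genes and 0.63 for the single epicardial gene to -0.37 for the carnitine shuttle, and Rpl30 at 3.61 lies off the axis.

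Of the 115 called genes 54 were in at least 1 of 42 lists and 61 in none. Some of the 61 are known from endothelial cells or vessels and were chosen after their values were seen. Pcdh12, an endothelial protocadherin, rose by 0.95 (SE 0.18), F2r, the thrombin receptor PAR1, by 0.87 (SE 0.14), Plxnd1, a semaphorin receptor of developing vessels, by 0.75 (SE 0.12) and Adcy4, an adenylyl cyclase, by 0.66 (SE 0.12). Others were Heph, a copper oxidase of iron export (0.73, SE 0.10), Vtn, the adhesion protein vitronectin (0.76, SE 0.11), Casp1, the protease of inflammasomes (0.74, SE 0.13), and Slc15a3, a lysosomal peptide transporter (1.09, SE 0.14).

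A list was made of 19 of the genes that the study names for these or related hearts. Of these 17 were tested, 1 rose (Ccnd1) and 0 fell, with a median log2 change of -0.09 and 5 higher and 4 lower with an unadjusted p below 0.05. Since that list was chosen in part on these hearts, its values are not independent evidence of direction. It leaves out Anp, Bnp, Myh6, Myh7 and ActA, whose RNA the study found unchanged between transgenic and wildtype rats. Their values are given above with the hypertrophy markers, of which Nppa (ANP) and Nppb (BNP) rose in the hearts compared here. Jag1, Mlycd and Pdk4, not called here, were called under some alternative settings.

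Clock genes separated the hearts in another way than the vector did. Bmal1, a core activator of the circadian clock, was 6.14, 6.30 and 7.51 in AAV-VEGF-B hearts 1, 3 and 5, against 7.78, 6.04 and 5.93 in AAV-HSA hearts 2, 4 and 6. Its repressor Per2 was 9.73, 9.43 and 7.61 in AAV-VEGF-B hearts, against 7.48, 10.42 and 9.79 in AAV-HSA hearts. AAV-VEGF-B heart 5 and AAV-HSA heart 2 thus shared high Bmal1 and low Per2, opposite to the other 4 hearts. The output gene Tef was 7.61, 7.38 and 6.07 in AAV-VEGF-B hearts, against 5.87, 7.91 and 7.72 in AAV-HSA hearts, with the same 2 hearts lowest. As each vector had 1 such heart, 0 of 11 tested clock genes were called (limma), with 0 with an unadjusted p below 0.05. When these 2 hearts were left out together, a comparison of 2 against 2 added after the data were seen, 2 probes were called higher and 0 lower (limma, with 792 higher and 610 lower with an unadjusted p below 0.05), and 1 of the 2 was among the 125. The time of day at which the hearts were taken was not named in the sources used here.

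**Figure D5:**
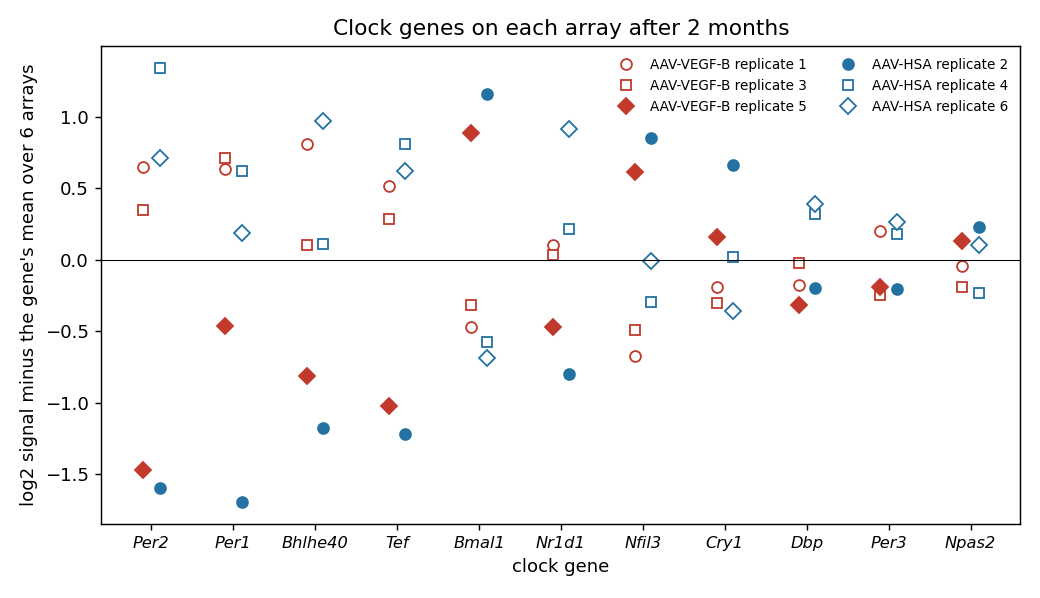
Log2 signal of 11 clock genes (x axis) on each array minus the gene's mean over the 6 arrays (y axis), with AAV-VEGF-B hearts in red and AAV-HSA hearts in blue. The filled symbols, AAV-VEGF-B replicate 5 and AAV-HSA replicate 2, lie together at the low end for Per2, Per1, Bhlhe40, Tef and Nr1d1 and at the high end for Bmal1, Nfil3 and Cry1.

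Males after 4 months were set beside these hearts in a fit of all 12 arrays. Of the 115 genes called in females after 2 months, 112 had the same sign and 30 were called in the same direction in males after 4 months, where 78 probes were higher (0.825%) and 4 lower (0.0423%). These counts are over the 9451 probes that met the detection filter in the hearts of 2 months. No probe differed between the 2 sets at an adjusted p under 0.05 (limma interaction, 0 of 9451, with 484 or 5.12% with an unadjusted p below 0.05). Among the 115 called genes, 32 had an unadjusted p of this difference below 0.05. The genes were chosen by their change after 2 months, which favours larger values there. Lcn2 had a log2 change of 1.25 (SE 0.19) after 2 months and 1.40 (SE 0.19) after 4 months, and Car4 one of 0.83 (SE 0.12) and 1.04 (SE 0.12). Nppa was at 2.05 (SE 0.56) after 2 months and 0.14 (SE 0.56) after 4 months, a difference of 1.91 (SE 0.79) that did not pass the adjustment (adjusted p = 0.944). Sik1 was at 1.29 (SE 0.20) and 0.09 (SE 0.20) at these times, Maoa at 1.24 (SE 0.21) and 0.34 (SE 0.21), and Fam81a at -1.06 (SE 0.24) and -0.03 (SE 0.24), each with an adjusted p of the difference of 0.944. Duration, sex and the second injection cannot be told apart in these differences.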

How the data were processed

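The authors isolated RNA with TRIsure and NucleoSpin columns, hybridised biotin-labelled cRNA and quantile normalized the arrays. Deposited were signal intensities per probe, not normalized, each with a detection p-value, and a log2 table, which equals the quantile-normalized log2 of those intensities within 0.005. No column held the authors' comparisons. From the intensities of the 6 arrays, limma 3.58.1 in R 4.3.3 corrected background (neqc, normexp with detection p-values, offset 16), quantile normalized and fitted lmFit and eBayes with Benjamini-Hochberg adjustment at 0.05. Median array signals were 151.8 to 171.1 in AAV-VEGF-B hearts and 163.3 to 173.5 in AAV-HSA hearts, and 3 arrays per group limit the precision. Of 22517 probes 13787 had 1 gene symbol, 0 several and 8730 none. In simulated data of 9451 probes, 97 of 100 changes of 1 and 30 of 100 of 0.5 (log2) were called, with 8 of 9251 unchanged probes.

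Genes named by rule were the VEGF family and the listed genes that the study names, the 15 largest rises and falls among called genes whose groups did not overlap, and up to 4 called members of each list with the smallest p. Other list members were chosen after their values were seen. The hearts, lists and tests were chosen with earlier results of these data known. Alternatives were other background corrections and offsets, median scaling, other filters on dim probes, an intensity trend, the deposited log2 table, all 12 arrays, and each array left out. No file header names a slide or scan, so neither could be used as a block. The values of 1 of the 42 lists are not reported here.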

Additional observations from a re-analysis of the deposited data

How the results depend on the processing

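Against 125 higher and 13 lower probes, calls were 223 and 73 without background correction, 212 and 72 with the deposited log2 table, 194 and 37 with an offset of 50, 221 and 61 with an intensity trend, 273 and 93 with all 12 arrays in the fit, and 461 and 9 with median scaling. Calls were 88 and 8 without the filter on dim probes and 126 and 22 with probes detected on all 6 arrays. Without 1 array the counts ran from 3 to 35 higher and from 0 to 8 lower, and with AAV-VEGF-B heart 5 and AAV-HSA heart 2 both left out, a choice made after the data were seen, they were 2 and 0. Of the calls, 90.6% were higher by the test of the report, against 75.3% without background correction, 74.6% with the deposited table, 78.4% with the trend and 98.1% with median scaling, which moved the median log2 change of all genes to 0.12 from -0.02. The cause of these shifts was not tested, save that leaving out arrays leaves fewer of them. Of 475 refits of the 60 called genes named by rule on all arrays, 435 were called and 0 turned sign, and of 835 refits with those on fewer arrays 488 were called. No paired analysis was possible because the 2 groups share no replicate number. A block for slides was not run. The difference between 2 and 4 months gave 0 calls by limma under each of its alternatives. With 3 arrays per group and a median standard error of 0.134 (log2), changes of the size of 0.5 were mostly missed in simulated data, and the offset lessens the changes of dim genes.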

Other observations

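On 3 probes some hearts were near background and the others bright, with a gap of more than 3 on the log2 scale that did not follow the vector. The probe of Mrpl18, a mitochondrial ribosomal protein gene, had log2 signals of 5.53, 11.15 and 11.13 in AAV-VEGF-B hearts 1, 3 and 5, against 5.28, 11.08 and 11.26 in AAV-HSA hearts 2, 4 and 6. The probe of Rpl30, a cytosolic ribosomal protein gene, had 10.91, 11.26 and 11.14 in AAV-VEGF-B hearts, against 11.38, 5.40 and 5.70 in AAV-HSA hearts, and its log2 change of 3.61 (SE 1.31) was not called by limma (adjusted p = 0.204). That of the MHC class I gene RT1-A2 had 5.21, 10.85 and 9.63 in AAV-VEGF-B hearts, against 9.21, 10.04 and 8.88 in AAV-HSA hearts. These probes were chosen after their values were seen.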
